A study of Mus musculus with 8 samples.

Results

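Transcripts of trophoblast, yolk sac and embryonic blood differed widely in amount between 8 RNA-seq libraries of pregnant mouse uterus, and all 8 of the 8 libraries of the study were placed on one axis by 7 of these transcripts. The axis, called here the 7-gene gradient, is the mean over Prl3d1, Prl7d1, Tpbpa, Afp, Hbb-bh1, Hba-x and Hbb-y of log2(CPM + 0.1), where CPM is the deposited count scaled to the total of its library. The libraries were therefore ordered on measured values, so the order and the 7 genes are described and not tested. Every other gene was then fitted on the gradient with treatment as a covariate, and a slope is the log2 change of a gene per 1 log2 of the gradient. All females were 8-week-old Foxp3DTR mice, whose regulatory T cells (marked by Foxp3) carry a receptor for diphtheria toxin and die when it is given. The sires were BALB/c, so the crosses were allogeneic, and the whole uterus with the conceptuses in it was taken at day 8 of pregnancy. The labels' protocols give intraperitoneal injections of 1 µg diphtheria toxin (DT) or of PBS on days 1, 3, 5 and 7, and state that the schedule removes 85% of regulatory T cells. The labels give 4 DT libraries (DT 1, DT 3, DT 4 and DT 5) and 4 PBS libraries (PBS 1, PBS 2, PBS 4 and PBS 6), and the protocol counts 4 females in each group. The number, sex and stage of the conceptuses in each uterus were not used here, since no label gives them.

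At this time of pregnancy the mouse embryo sits inside a swelling of maternal tissue, the decidua, in the wall of the uterus. Trophoblast giant cells at its rim secrete hormones of the prolactin family, the ectoplacental cone gives rise to the spongiotrophoblast, and the visceral endoderm of the yolk sac makes the serum proteins that the liver makes later. The first red cells form in the yolk sac and use embryonic globins, which adult red cells do not use. Because a female has no Y chromosome, transcripts of Y-linked genes in her uterus mark male conceptuses.

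Of the 7 genes, Hbb-y and Hba-x encode embryonic globin chains and Prl3d1 encodes placental lactogen I of the giant cells. The 250 bases before the start of these 3 genes are shown, as RefSeq gives them in build GRCm38.p6 and in the direction of the gene. Capitals mark matches, on either strand, to a GATA word (the hexamer AGATAA, the hexamer AGATAG, the hexamer TGATAA or the hexamer TGATAG), to the word CACCC and to the word CCAAT. These words are known in globin promoters.
Hbb-y: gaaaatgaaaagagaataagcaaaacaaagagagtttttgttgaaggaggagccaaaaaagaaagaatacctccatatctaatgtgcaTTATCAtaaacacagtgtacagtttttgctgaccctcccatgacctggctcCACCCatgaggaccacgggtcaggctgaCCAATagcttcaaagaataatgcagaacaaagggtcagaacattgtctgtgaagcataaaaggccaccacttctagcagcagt
Hba-x: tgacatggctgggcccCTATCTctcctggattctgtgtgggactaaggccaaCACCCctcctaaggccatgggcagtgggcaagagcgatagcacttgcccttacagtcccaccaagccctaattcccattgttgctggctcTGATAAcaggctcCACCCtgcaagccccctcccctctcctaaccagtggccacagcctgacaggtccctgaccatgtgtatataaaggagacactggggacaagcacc
Prl3d1: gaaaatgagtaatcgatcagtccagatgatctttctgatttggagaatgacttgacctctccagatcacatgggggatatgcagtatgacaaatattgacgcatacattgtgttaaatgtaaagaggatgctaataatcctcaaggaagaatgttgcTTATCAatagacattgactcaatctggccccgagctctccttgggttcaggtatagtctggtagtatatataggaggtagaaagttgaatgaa
The window of Hbb-y (chr7:103853208-103853457, minus strand) held 1 GATA word, 1 CACCC and 1 CCAAT. The window of Hba-x (chr11:32276350-32276599, plus strand) held 2 GATA words, 2 CACCC and 0 CCAAT. The window of Prl3d1 (chr13:27093939-27094188, plus strand) held 1 GATA word and 0 of the others. The starts used are those of RefSeq. By the GENCODE gene spans given below, the windows of Hbb-y and Hba-x overlap their genes, and that of Prl3d1 does not. Of 32536 windows of this length, 26.5% held a GATA word, 52.1% a CACCC and 33.8% a CCAAT, so each of these words is common in such windows.

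The gradient was not evenly filled. It stood at 5.97 in PBS 2 and 3.39 in PBS 1, and at -0.66 in DT 3, -0.70 in DT 5, -0.83 in PBS 6, -1.37 in DT 1, -1.37 in DT 4 and -1.44 in PBS 4. Of its range of 7.41, the 6 lower libraries spanned 0.780, and the axis therefore set PBS 1 and PBS 2 against the other 6 far more than it graded all 8. The mean was -1.03 ± 0.40 (SD, n = 4) over the DT-labelled libraries and 1.77 ± 3.53 (SD, n = 4) over the PBS-labelled libraries, and the groups overlapped. PBS 1 and PBS 2 also carry the same number after an S in their titles (S1), which no other library carries and whose meaning the labels do not give. What that number stands for cannot be told apart from what the gradient measures, so results are given with and without PBS 1 and PBS 2. The other titles carry S2 (PBS 4 and PBS 6), S3 (DT 1 and DT 3) and S4 (DT 4 and DT 5). Each number thus lies within a single treatment label, and differences between the labels cannot be told apart from differences between the numbers. Total counts were 94794512 to 109847604 per library, and a count of 0 allowed up to 0.0273 to 0.0316 CPM (3 counts, counting error only). Mitochondrially encoded genes held 2.17% of counts in PBS 1 and in PBS 2 and 2.27 to 2.49% in the other 6, and the 10 most abundant genes held 15.9 and 14.2% against 7.75 to 13.0%. PBS 1 and PBS 2 were thus the lowest on the first measure and the highest on the second, and the part of either in the slopes was not tested. Foxp3 measured 4.89, 4.36, 5.44 and 4.86 CPM in the PBS-labelled libraries and 5.12, 5.1, 5.72 and 5.69 CPM in the DT-labelled libraries, so it gave no check of the treatment labels. DT 1 stood apart in its maternal tissue: its 24 decidual genes summed to 7942 CPM against 12984 to 23802 CPM in the others, and its 20 epithelial and gland genes to 1611 CPM against 398 to 756 CPM.

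In what follows values are listed in the order PBS 1, PBS 2, PBS 4, PBS 6 and then DT 1, DT 3, DT 4, DT 5. CPM of the 7 defining genes is per library total, and CPM of all other genes uses totals scaled by TMM, a factor that balances the bulk of genes between libraries. The 3 trophoblast genes of the gradient had signal in every library. Prl3d1 (chr13:27094190-27100258, plus strand, GRCm38) measured 49.8, 173, 4.73 and 8.15 CPM in the PBS-labelled libraries and 9.98, 23.4, 13.6 and 15.7 CPM in the DT-labelled libraries. Prl7d1, which encodes the proliferin-related hormone (chr13:27706337-27716736, minus strand), measured 8.48, 31.8, 0.158 and 0.202 CPM in the PBS-labelled libraries and 0.0637, 0.369, 0.105 and 0.403 CPM in the DT-labelled libraries. Tpbpa, the spongiotrophoblast marker (chr13:60938492-60941984, minus strand), measured 8.9, 26.3, 1.01 and 1.91 CPM in the PBS-labelled libraries and 1.31, 1.18, 0.791 and 0.938 CPM in the DT-labelled libraries. PBS 2 was highest and PBS 1 next for all 3 genes. The order of the other libraries differed by gene: Prl3d1 was lowest in both remaining PBS-labelled libraries, and Tpbpa was higher in PBS 6 than in any DT-labelled library. Of the 75-base windows of Prl3d1 exons, 34.6% also occur in Prl3d2 or Prl3d3, so reads may be shared with those genes.

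Afp and the embryonic globins separated the libraries more sharply. Afp, alpha-fetoprotein of the yolk sac (chr5:90490737-90508907, plus strand), measured 6.71, 34.6, 0.444 and 0.979 CPM in the PBS-labelled libraries and 0.464, 0.759, 0.359 and 0.488 CPM in the DT-labelled libraries. Hbb-bh1, an embryonic beta-like globin (chr7:103841637-103843164, minus strand), measured 18.5, 103, 0 and 0.182 CPM in the PBS-labelled libraries and 0, 0.15, 0 and 0.45 CPM in the DT-labelled libraries. Hba-x, the embryonic alpha-like globin (chr11:32276400-32278116, plus strand), measured 16.3, 109, 0.00987 and 0.0192 CPM in the PBS-labelled libraries and 0, 0.00998, 0.0105 and 0.0281 CPM in the DT-labelled libraries. Hbb-y (chr7:103851749-103853216, minus strand) measured 1.61, 67.3, 0.00987 and 0 CPM in the PBS-labelled libraries and 0, 0.02, 0 and 0 CPM in the DT-labelled libraries. The 3 globin genes were at or near 0 in 6 libraries, and the step from PBS 1 to PBS 2 was much wider for Hbb-y (166 and 7213 counts) than for Hbb-bh1 (1908 and 11017 counts). The 3 globins had 0 to 48 counts in each of the other 6 libraries, and Hba-x and Hbb-y did not pass the filter on low counts.

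**Figure D1:**
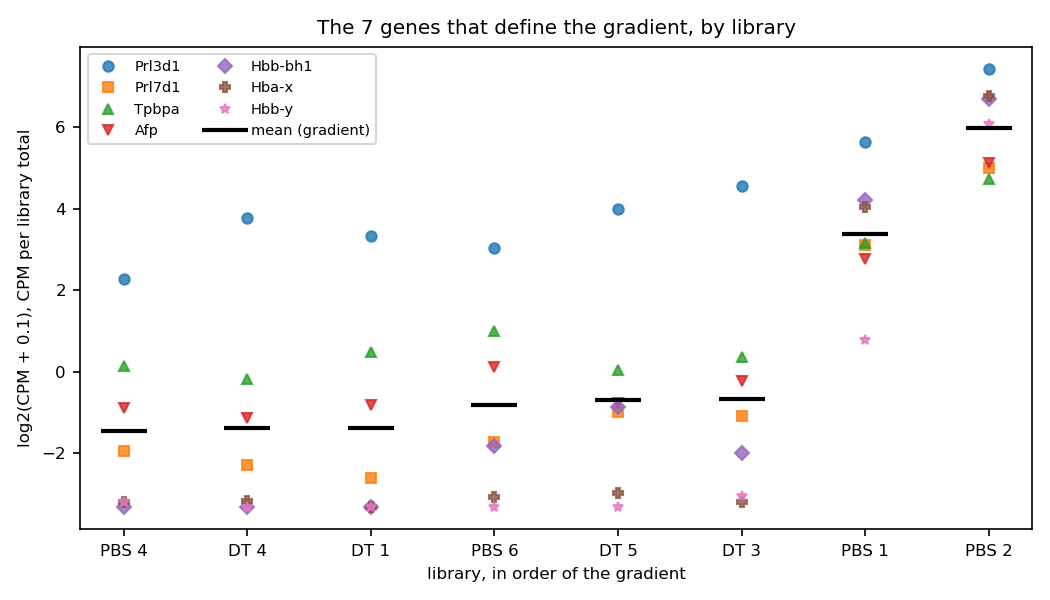
Log2(CPM + 0.1) of each of the 7 defining genes (symbols) and their mean, the gradient (black bars), in the 8 libraries in order of the gradient. PBS 1 at 3.39 and PBS 2 at 5.97 stand above the other 6, which lie between -1.44 and -0.66.

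Along the gradient, 801 genes rose and 329 fell of 22688 tested (edgeR quasi-likelihood, adjusted p under 0.05), a background of 3.53% higher and 1.45% lower. The median slope was -0.0028 over all genes tested, 0.21 over the genes that rose and -0.14 over those that fell. PBS 1 and PBS 2 were both above the other 6 libraries for 778 of the 801 genes, and both below them for 325 of the 329. The axis was built from conceptus genes of these same libraries, so a rise of other conceptus genes is partly set by its choice. At an unadjusted p under 0.05, 11.6% of all genes tested were higher and 12.9% lower, and 52.0% of all slopes were negative. Over all genes tested, 4516 had both libraries above and 4421 had both below the other 6. With libraries scaled by their totals alone, 445 rose and 366 fell, so the share of higher calls went from 70.9% to 54.9%.

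These counts rested on PBS 2 most, and then on PBS 4. With treatment in the fit, leverage (the weight of a library in its own fitted value) was 0.72 in PBS 2 and 0.52 in PBS 4. It was 0.43 in PBS 6, 0.32 in PBS 1 and 0.25 in each DT-labelled library. The slopes therefore came mostly from differences among the PBS-labelled libraries. Without PBS 2, 34 genes rose and 2 fell. Without PBS 4, the lowest PBS-labelled library, 113 rose and 12 fell, and without PBS 1, 363 rose and 65 fell. Without DT 1, the count went the other way, to 1939 higher and 1791 lower. In the 6 libraries left after PBS 1 and PBS 2 were both removed, a setting chosen after seeing the data, 0 genes passed by edgeR (smallest adjusted p = 0.0766, 6037 genes at an unadjusted p under 0.05). Of the 801 genes that rose over 8 libraries, 667 had a positive slope in those 6, where 10572 of 22688 genes did. Of the 329 that fell, 319 had a negative slope there. The 6 libraries are part of the 8, so these signs are a description and no second test. The 4 DT-labelled libraries alone, which span 0.709 of the gradient, gave 0 calls (smallest adjusted p = 0.319, 3299 genes at an unadjusted p under 0.05). The 4 PBS-labelled libraries alone gave 812 higher and 568 lower, of which 584 and 195 were also called over all 8. With the title number as a block in place of treatment, 0 genes passed (smallest adjusted p = 0.980, 853 at an unadjusted p under 0.05).

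**Figure D2:**
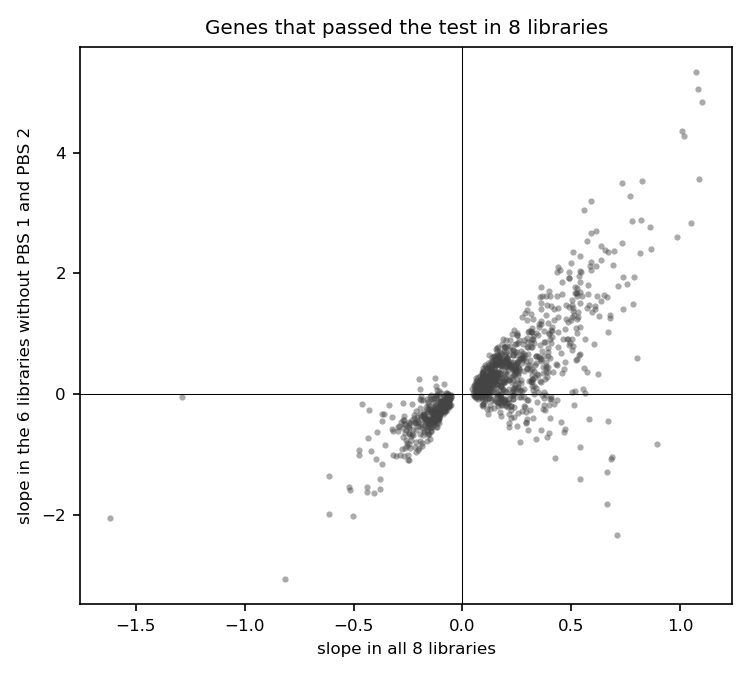
Slope of each gene that passed the test over all 8 libraries (x axis) against its slope in the 6 libraries without PBS 1 and PBS 2 (y axis), both in log2 per 1 log2 of the gradient. Most of the 801 genes to the right of 0 are also above 0 (667), and 319 of the 329 to the left are also below 0. The y range is wider than the x range.

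Y-linked genes, which the gradient does not contain, rose in 4 of 4 cases, with slopes of 0.86 to 1.05 and a median of 0.92. Ddx3y, an RNA helicase, measured 2.49, 9.67, 0.123 and 0 CPM in the PBS-labelled libraries and 0.0934, 0.849, 0.102 and 0.67 CPM in the DT-labelled libraries, with a slope of 1.05 ± 0.19 (SE; adjusted p = 0.0248). Kdm5d, a histone demethylase, measured 0.871, 2.61, 0.0378 and 0 CPM in the PBS-labelled libraries and 0.0311, 0.18, 0.0204 and 0.155 CPM in the DT-labelled libraries, with a slope of 0.98 ± 0.15 (SE; adjusted p = 0.0149). PBS 2 and PBS 1 were highest for both, and DT 3 and DT 5 were above the other 4. PBS 6 was at 0 for both genes, although its gradient lay close to those of DT 3 and DT 5. Uty had a slope of 0.87 ± 0.15 and Eif2s3y, a translation factor subunit, one of 0.86 ± 0.17. The summed level of the 4 genes went from 0.0094 CPM in PBS 6 to 17.7 CPM in PBS 2. Without PBS 2, 0 of the 4 passed, without PBS 1, 1 passed, and without PBS 4, 0 passed.

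Genes of the trophoblast hormone family rose in PBS 1 and PBS 2. Of 16 tested prolactin-family genes outside the gradient, 7 rose and 0 fell (median slope 0.62). Prl2c3, a proliferin (chr13:12790816-12800079, minus strand), measured 56.2, 217, 0.349 and 2.94 CPM in the PBS-labelled libraries and 0.226, 2.96, 0.408 and 3.21 CPM in the DT-labelled libraries, with a slope of 1.10 ± 0.18 (SE; adjusted p = 0.0206). Its near copy Prl2c2 measured 28.7, 84.2, 0.274 and 1.66 CPM in the PBS-labelled libraries and 0.07, 3.02, 0.612 and 2.16 CPM in the DT-labelled libraries, with a slope of 1.02 ± 0.20. Both were highest in PBS 2, next in PBS 1, and at 1.66 to 3.21 CPM in DT 3, DT 5 and PBS 6, against 0.070 to 0.612 CPM in DT 1, DT 4 and PBS 4. Of their exon windows, 71.8% (Prl2c2) and 51.7% (Prl2c3) also occur in other copies, so their counts are not independent.

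Not every prolactin gene followed that order. Prl3d3, a second placental lactogen I gene, measured 2, 8.98, 0.264 and 0.236 CPM in the PBS-labelled libraries and 1.35, 0.729, 1.02 and 0.553 CPM in the DT-labelled libraries, with a slope of 0.69 ± 0.093 (SE; adjusted p = 0.00999). Its copy Prl3d2 measured 5.14, 21.5, 1.1 and 0.983 CPM in the PBS-labelled libraries and 4.1, 3.53, 3.37 and 2.42 CPM in the DT-labelled libraries, with a slope of 0.58 ± 0.062. In both genes PBS 2 stood far above PBS 1, and the slope within the 6 lower libraries was negative (-1.05 and -0.41). Prl3d2 shares 54.4% and Prl3d3 53.9% of its windows with other copies. Prl2c5 had a slope of 0.67 ± 0.11 over 8 libraries and of -0.44 over the 6, with 19.6% of windows shared. Prl7a1 and Prl8a9, chosen after their values were seen, did not pass. Prl7a1 measured 129, 309.7, 3.66 and 15 CPM in the PBS-labelled libraries and 0.436, 23.1, 5.84 and 21.5 CPM in the DT-labelled libraries (slope 0.81 ± 0.22 (SE; adjusted p = 0.0822)), and its 0.436 CPM in DT 1 was the lowest value by a wide margin. Prl8a9 measured 10.1, 5.91, 22.2 and 23.7 CPM in the PBS-labelled libraries and 20.5, 37.7, 52.7 and 35.4 CPM in the DT-labelled libraries (slope -0.27 ± 0.063 (SE; adjusted p = 0.0574)), so PBS 1 and PBS 2 were below all others for this gene. Without PBS 2, 0 of the 16 passed, without PBS 1, 2, and without PBS 4, 1. DESeq2 called 10 higher and 1 lower.

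Of 9 tested giant cell genes, 2 rose and 0 fell (median slope 0.20). Prl2c2 was one, and the other was Hand1, a transcription factor that giant cells need. Hand1 measured 60.6, 109.9, 2.14 and 7.22 CPM in the PBS-labelled libraries and 1.46, 14.1, 7.26 and 13.1 CPM in the DT-labelled libraries, with a slope of 0.73 ± 0.15 (SE; adjusted p = 0.0374). The highest were PBS 1 and PBS 2, and DT 3 and DT 5 came next. Prl4a1, a prolactin-like hormone, had 77.2 and 218 CPM in PBS 1 and PBS 2 and 0.0778 to 9.76 CPM in the other 6 and did not pass (slope 0.94 ± 0.23 (SE; adjusted p = 0.0611)). Cts7, a placental cathepsin, had overlapping values of 28.5, 38.3, 10.4 and 19.5 CPM in the PBS-labelled libraries and 11.5, 33.7, 29.1 and 33.2 CPM in the DT-labelled libraries and did not pass (slope 0.21 ± 0.075 (SE; adjusted p = 0.142)). With DT 1 left out, 5 of the giant cell genes and 13 of the prolactin family rose, and with any other library left out, 0 giant cell genes did.

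Of 9 tested genes of the ectoplacental cone and spongiotrophoblast, 7 rose and 0 fell (median slope 0.43). Ceacam9, a trophoblast cell-surface protein of the carcinoembryonic antigen family (chr7:16721929-16726132, plus strand), measured 54.2, 114, 0.548 and 1.67 CPM in the PBS-labelled libraries and 0.0545, 6.46, 1.6 and 4.02 CPM in the DT-labelled libraries, with a slope of 1.08 ± 0.24 (SE; adjusted p = 0.0455). Phlda2, an imprinted gene that limits placental growth, measured 14, 21.5, 1.42 and 2.44 CPM in the PBS-labelled libraries and 1.6, 5, 2.63 and 4.77 CPM in the DT-labelled libraries, with a slope of 0.55 ± 0.077 (SE; adjusted p = 0.011). Tpbpb, the paralogue of Tpbpa, was low everywhere but ordered alike, with 0.436 and 0.928 CPM in PBS 1 and PBS 2 and 0.0283 to 0.107 CPM in the other 6 (slope 0.66 ± 0.073 (SE; adjusted p = 0.00465)). Ascl2, a transcription factor of the ectoplacental cone, had 2.3 and 2.72 CPM in PBS 1 and PBS 2 and 0.692 to 1.23 CPM in the other 6 (slope 0.28 ± 0.043), and Psg19, a pregnancy-specific glycoprotein, had 1.07 and 2.17 CPM in PBS 1 and PBS 2 and 0.302 to 0.98 CPM in the other 6 (slope 0.36 ± 0.054). Psg22 and Psg29 of the same family also rose. Without PBS 2, 0 of the 9 passed, without PBS 4, 0, and without PBS 1, 4.

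Stem and labyrinth trophoblast genes had smaller slopes. Of 12 stem cell and chorion genes 3 rose (median slope 0.18), and of 9 labyrinth genes 3 rose (median 0.052). Eomes, a trophoblast stem cell factor that NK cells also use, measured 19.1, 20.4, 8.21 and 10.7 CPM in the PBS-labelled libraries and 8.1, 9.99, 8.67 and 10.6 CPM in the DT-labelled libraries, with a slope of 0.18 ± 0.026 (SE; adjusted p = 0.0138). Zfp42 had 1.38 and 2.68 CPM in PBS 1 and PBS 2 and 0.0778 to 0.52 CPM in the other 6 (slope 0.52 ± 0.10), and Sox21, of whose windows 17.2% occur in another gene, had 0.632 and 0.691 CPM in PBS 1 and PBS 2 and 0.085 to 0.281 CPM in the other 6 (slope 0.43 ± 0.082). Esrrb, a nuclear receptor of trophoblast stem cells, had 1.02 and 1.58 CPM in PBS 1 and PBS 2 and 0.07 to 0.582 CPM in the other 6 and did not pass (slope 0.39 ± 0.11 (SE; adjusted p = 0.0947)). Among labyrinth genes, the lactate carriers Slc16a1 and Slc16a3 rose. Slc16a1 measured 128, 161, 54.9 and 79.4 CPM in the PBS-labelled libraries and 48.2, 70.5, 52.5 and 72.6 CPM in the DT-labelled libraries (slope 0.19 ± 0.032) and Slc16a3 had 14.5 and 18.1 CPM in PBS 1 and PBS 2 and 7.19 to 9.84 CPM in the other 6 (slope 0.17 ± 0.021). Syna, a syncytin that fuses trophoblast cells, had 0.392 and 1.19 CPM in PBS 1 and PBS 2 and 0.123 to 0.194 CPM in the other 6 (slope 0.41 ± 0.053, and -0.075 in the 6 lower libraries, 12.2% of windows shared). With PBS 2 left out, 0 genes of either list passed, and with PBS 4 left out, 0 and 1. With DT 1 left out, 6 and 3 rose.

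The 15 steepest risers among genes with a mean log2 CPM of 0 or more also held genes of steroid and purine metabolism and genes outside the lists. Cyp17a1, the enzyme that makes androgen precursors (chr19:46667165-46673172), measured 16.7, 53.5, 0.085 and 0.803 CPM in the PBS-labelled libraries and 0.0156, 0.969, 0.184 and 1.08 CPM in the DT-labelled libraries, with a slope of 1.08 ± 0.19 (SE; adjusted p = 0.0261). Star, which carries cholesterol into mitochondria and was chosen after its values were seen, measured 62.9, 226, 12.6 and 14.3 CPM in the PBS-labelled libraries and 15.4, 14.9, 14.7 and 15.1 CPM in the DT-labelled libraries, with a slope of 0.55 ± 0.031 (SE; adjusted p = 6.18e-04). The 6 lower libraries were nearly level for Star, at 12.6 to 15.4 CPM, whereas for Cyp17a1 they differed among themselves. Ada, adenosine deaminase, which breaks down adenosine in decidua and trophoblast, measured 248, 431, 7.39 and 25.1 CPM in the PBS-labelled libraries and 3.42, 23.1, 9.28 and 27 CPM in the DT-labelled libraries, with a slope of 0.78 ± 0.15 (SE; adjusted p = 0.0309). Rhox6, an X-linked homeobox gene, had 16.1 and 46.9 CPM in PBS 1 and PBS 2 and 0.0156 to 1.31 CPM in the other 6 (slope 1.01 ± 0.20, 11.7% of windows shared with Rhox9), and the membrane protein gene Prom2 had 10.5 and 19.1 CPM in PBS 1 and PBS 2 and 0.0856 to 1.44 CPM in the other 6 (slope 0.82 ± 0.17). Serpinb9d, a protease inhibitor gene with 16.8% of windows shared with neighbours, had 7.44 and 19.4 CPM in PBS 1 and PBS 2 and 0.14 to 1.19 CPM in the other 6 (slope 0.82 ± 0.12). Pramef12 had 6.88 and 17.2 CPM in PBS 1 and PBS 2 and 0.387 to 1.16 CPM in the other 6 (slope 0.74 ± 0.063), Ldoc1, derived from a retrotransposon, had 14.8 and 26.1 CPM in PBS 1 and PBS 2 and 0.537 to 3.69 CPM in the other 6 (slope 0.70 ± 0.13), and Tex19.1, known in placenta and germ cells, had 6.78 and 12 CPM in PBS 1 and PBS 2 and 0.272 to 1.83 CPM in the other 6 (slope 0.69 ± 0.12). For each of these genes both PBS 1 and PBS 2 exceeded every other library.

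**Figure D3:**
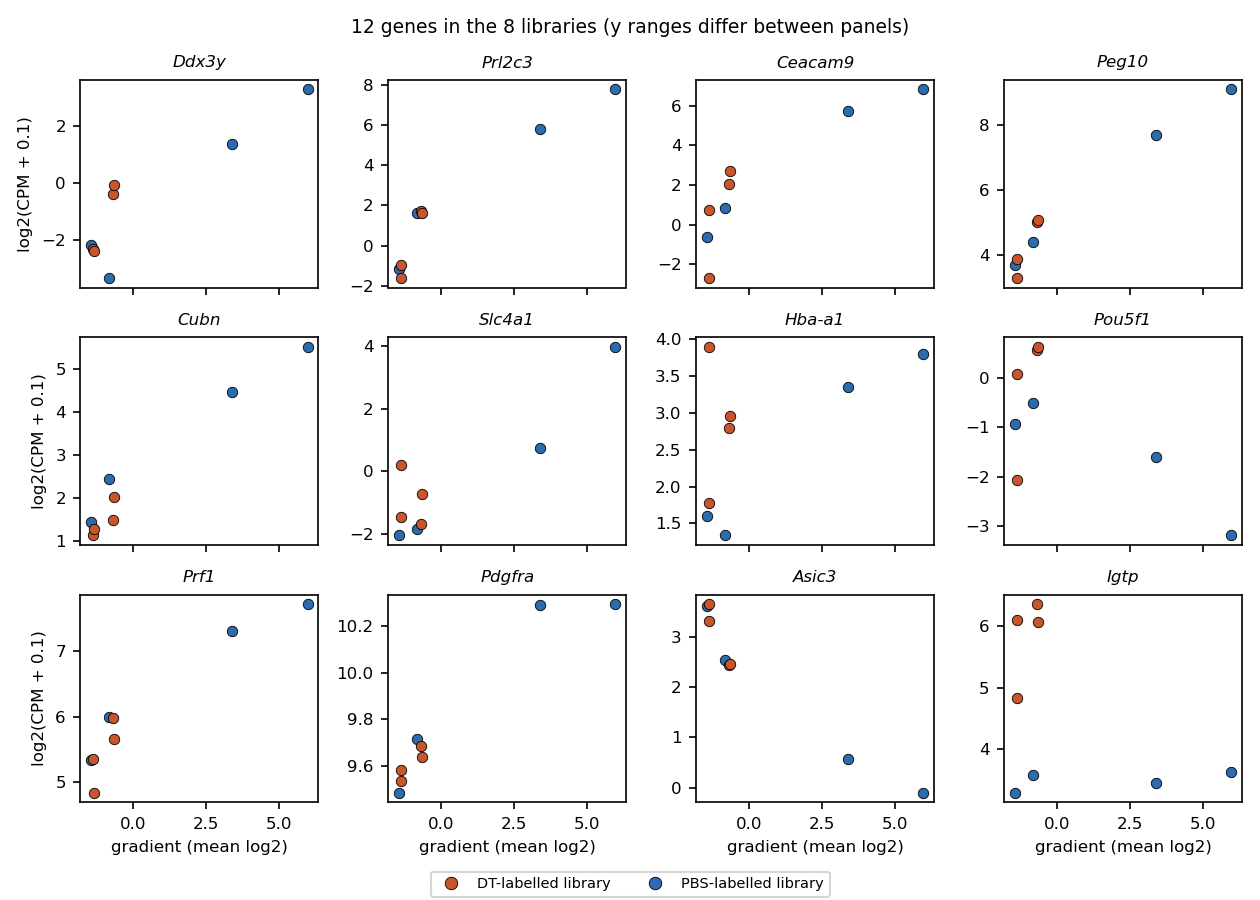
Log2(CPM + 0.1) of 12 genes against the 7-gene gradient, 1 point per library, with DT-labelled libraries in orange and PBS-labelled libraries in blue. Ddx3y, Prl2c3, Ceacam9, Peg10, Cubn, Slc4a1, Prf1 and Pdgfra are higher in PBS 1 and PBS 2 (the 2 points to the right) than in the others, Asic3 is lower, Pou5f1 is lowest in PBS 2, Hba-a1 is highest in DT 4, and Igtp separates the labelled treatments. The y ranges differ between panels.

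Yolk sac genes formed the longest list and the one with the most risers by count. Of 26 tested genes of visceral endoderm and yolk sac, 15 rose and 0 fell (median slope 0.33). This share of 57.7% was below those of the Y-linked (100%), ectoplacental cone (77.8%), cholesterol synthesis (60%) and heart (58.3%) lists. The summed level of the list was 321 and 472 CPM in PBS 1 and PBS 2 and 256 to 414 CPM in the other 6, so PBS 1 lay within their range. Cubn, the endocytic receptor cubilin (chr2:13276338-13491813), measured 22, 45.5, 2.64 and 5.3 CPM in the PBS-labelled libraries and 2.34, 3.98, 2.09 and 2.69 CPM in the DT-labelled libraries, with a slope of 0.52 ± 0.045 (SE; adjusted p = 0.00194). Amn, its partner amnionless, measured 1.48, 3.15, 0.274 and 0.435 CPM in the PBS-labelled libraries and 0.366, 0.56, 0.388 and 0.408 CPM in the DT-labelled libraries, with a slope of 0.45 ± 0.036 (SE; adjusted p = 0.00138). Ttr, the thyroid hormone and retinol carrier transthyretin, measured 5.13, 14.8, 0.264 and 0.69 CPM in the PBS-labelled libraries and 0.335, 0.929, 0.265 and 0.505 CPM in the DT-labelled libraries, with a slope of 0.74 ± 0.073 (SE; adjusted p = 0.0034). PBS 2 was highest and PBS 1 next for all 3, and Cubn in PBS 6 (5.3 CPM) was above every DT-labelled library. The glucose carrier Slc2a2 had 2.78 and 6.61 CPM in PBS 1 and PBS 2 and 0.226 to 0.652 CPM in the other 6 (slope 0.53 ± 0.048), and the zinc carrier Slc39a5 had 1.01 and 1.93 CPM in PBS 1 and PBS 2 and 0.217 to 0.32 CPM in the other 6 (slope 0.42 ± 0.035). The other risers were the apolipoprotein genes Apoa1, Apoa2, Apoa4, Apob and Apom, with Soat2, Lrp2, Hnf4a, Gata4 and Fga. Of the windows of Apoa4, 56.1% occur in overlapping or copied gene models. Spink1, chosen after its values were seen, went the other way without passing (slope -0.45 ± 0.14 (SE; adjusted p = 0.114)). It measured 2.62, 4.47, 47.3 and 10.9 CPM in the PBS-labelled libraries and 124, 30.3, 45 and 30.1 CPM in the DT-labelled libraries, highest in DT 1, the library with the most epithelial RNA, and the part of uterine glands in its level was not tested. Leaving out PBS 2 left 0 of the 26 called, and leaving out PBS 4 left 7.

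The genes listed for parietal endoderm, the outer yolk sac layer, had a median slope near 0. Of 14 tested, 1 rose and 0 fell (median slope -0.013), and their summed level was 8846 CPM in DT 1 and 9885 to 11823 CPM in the other 7 libraries. The visceral endoderm and yolk sac list summed to 256 to 472 CPM. The part of maternal tissue in the parietal endoderm list was not tested, so its slopes do not show whether that layer followed the axis. The riser was Pdgfra, a growth factor receptor that uterine stroma also makes. Pdgfra measured 1249.9, 1254, 718 and 842 CPM in the PBS-labelled libraries and 768, 797, 742 and 824 CPM in the DT-labelled libraries, with a slope of 0.11 ± 0.021 (SE; adjusted p = 0.0303), and did not pass without PBS 2 or without PBS 4. Stra6, a retinol receptor, measured 19, 16.8, 91.5 and 45.4 CPM in the PBS-labelled libraries and 178, 60.5, 104 and 57.3 CPM in the DT-labelled libraries, lowest in PBS 1 and PBS 2, and did not pass (slope -0.32 ± 0.083 (SE; adjusted p = 0.069)).

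Red cell genes rose with the embryonic globins, and adult globins did not pass. Of 21 tested erythroid genes outside the gradient, 10 rose and 0 fell (median slope 0.25). Slc4a1, the anion exchanger of the red cell membrane (chr11:102348824-102366203), measured 1.59, 15.7, 0.142 and 0.18 CPM in the PBS-labelled libraries and 0.265, 0.51, 1.05 and 0.214 CPM in the DT-labelled libraries, with a slope of 0.89 ± 0.14 (SE; adjusted p = 0.0166). Klf1, the transcription factor that drives globin genes, had 0.49 and 1.43 CPM in PBS 1 and PBS 2 and 0.136 to 0.241 CPM in the other 6 (slope 0.40 ± 0.057), and Tfrc, the transferrin receptor, had 97.2 and 109 CPM in PBS 1 and PBS 2 and 60.8 to 74.9 CPM in the other 6 (slope 0.10 ± 0.017). PBS 2 was far above PBS 1 for Slc4a1, and DT 4 was highest of the other 6. Gata1, Nfe2, Hemgn, Trim10 and Epor were also among the risers. In the 6 lower libraries 7 of the 21 slopes were positive, and those of Slc4a1 and Klf1 were negative (-0.82 and -0.18). Hba-a1, an adult alpha globin chosen after its values were seen, measured 10.1, 13.8, 2.93 and 2.43 CPM in the PBS-labelled libraries and 3.34, 7.67, 14.8 and 6.84 CPM in the DT-labelled libraries (slope 0.34 ± 0.10 (SE; adjusted p = 0.106)), and Hbb-bs, an adult beta globin, measured 46.6, 43.6, 18 and 12.6 CPM in the PBS-labelled libraries and 18.2, 43.5, 81.2 and 40.1 CPM in the DT-labelled libraries (slope 0.23 ± 0.10 (SE; adjusted p = 0.225)). Both were highest in DT 4, and PBS 1 and PBS 2 lay within the range of the DT-labelled libraries. Their copies Hba-a2 (slope 0.34 ± 0.11) and Hbb-bt (slope 0.19 ± 0.13) did not pass either, and 51.5 to 84.6% of the windows of these 4 genes are shared within each pair. Without PBS 2, 0 of the 21 passed, without PBS 4, 1, and with library totals, 6.

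Several genes of the embryonic heart and nervous system rose, whereas Pou5f1 of the epiblast and T of the primitive streak did not pass. Of 12 heart genes 7 rose and 0 fell (median slope 0.21), of 7 neural genes 3 rose and 0 fell (0.35), and of 19 patterning and mesoderm genes 3 rose and 0 fell (0.14). The summed level of the heart list was 191 and 200 CPM in PBS 1 and PBS 2, within the 170 to 292 CPM of the other 6. In the 6 lower libraries 5 of the 12 heart slopes were positive. Myh6, a cardiac myosin chain of whose windows 13.7% occur in other genes, measured 2.31, 7.27, 0.501 and 0.321 CPM in the PBS-labelled libraries and 0.35, 0.56, 0.52 and 0.495 CPM in the DT-labelled libraries, with a slope of 0.56 ± 0.051 (SE; adjusted p = 0.00242). Myl7, an atrial myosin light chain, measured 1.11, 2.77, 0.17 and 0.17 CPM in the PBS-labelled libraries and 0.0622, 0.21, 0.112 and 0.272 CPM in the DT-labelled libraries, with a slope of 0.58 ± 0.070 (SE; adjusted p = 0.0065). For both genes the 6 lower libraries stayed at or under 0.56 CPM. Tnni1 (slope 0.30 ± 0.029) and Ttn (slope 0.40 ± 0.045), parts of the muscle sarcomere, rose too, with Actc1, Myl4 and Tnnt2.

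Pax6, a transcription factor of eye and forebrain, measured 0.457, 1.48, 0.104 and 0.0756 CPM in the PBS-labelled libraries and 0.101, 0.11, 0.102 and 0.194 CPM in the DT-labelled libraries, with a slope of 0.56 ± 0.055 (SE; adjusted p = 0.00328). Sox2 had 0.871 and 2.08 CPM in PBS 1 and PBS 2 and 0.0283 to 0.33 CPM in the other 6 (slope 0.61 ± 0.12) and Sox3, which like Sox2 marks early neural tissue, had 0.446 and 1.09 CPM in PBS 1 and PBS 2 and 0.0389 to 0.243 CPM in the other 6 (slope 0.53 ± 0.094). Lin28b, which blocks let-7 microRNAs, had 2.95 and 7.61 CPM in PBS 1 and PBS 2 and 0.0467 to 1.01 CPM in the other 6 (slope 0.73 ± 0.16 (SE; adjusted p = 0.0427)), Utf1 had 4.1 and 5.7 CPM in PBS 1 and PBS 2 and 0.311 to 1.6 CPM in the other 6 (slope 0.54 ± 0.10) and Dll3, a Notch ligand of somite formation, had 0.316 and 0.588 CPM in PBS 1 and PBS 2 and 0.101 to 0.24 CPM in the other 6 (slope 0.27 ± 0.055). Pou5f1, the pluripotency factor OCT4 of the epiblast, was chosen after its values were seen. It measured 0.229, 0.0103, 0.425 and 0.605 CPM in the PBS-labelled libraries and 0.14, 1.44, 0.949 and 1.38 CPM in the DT-labelled libraries, with a slope of -0.40 ± 0.22 (SE; adjusted p = 0.296), and was highest in DT 3 and DT 5 and lowest in PBS 2. T (brachyury), which marks the primitive streak, measured 1.18, 1.18, 0.652 and 0.794 CPM in the PBS-labelled libraries and 0.272, 1.96, 0.592 and 1.21 CPM in the DT-labelled libraries and did not pass (slope 0.14 ± 0.12 (SE; adjusted p = 0.488)). PBS 1 and PBS 2 thus lay within the range of the DT-labelled libraries for T, and PBS 2 below all others for Pou5f1. Conceptus genes did not all follow the axis, and more conceptus tissue, a later stage of it and more RNA per cell cannot be told apart in these libraries. No PBS 2 in the fit left 0 calls in these 3 lists, and no PBS 4 left 3 heart, 1 neural and 0 patterning genes. No DT 1 in the fit gave 10 heart, 8 neural and 7 patterning genes higher, with more neural genes past the filter on low counts.

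Imprinted genes, many of which act in placental growth, included some of the most abundant risers. Of 25 tested, 11 rose and 0 fell (median slope 0.10). H19, a long noncoding RNA (chr7:142575529-142578143), measured 562, 1152, 53.6 and 87.4 CPM in the PBS-labelled libraries and 59, 161, 93.1 and 152 CPM in the DT-labelled libraries, with a slope of 0.61 ± 0.059 (SE; adjusted p = 0.00321). Igf2, the growth factor of the same locus, measured 125, 281, 12.3 and 21.1 CPM in the PBS-labelled libraries and 11.3, 34.2, 20.3 and 31.4 CPM in the DT-labelled libraries, with a slope of 0.61 ± 0.062 (SE; adjusted p = 0.00362). Peg10, a retrotransposon-derived gene that the placenta needs, measured 205, 549, 12.6 and 20.9 CPM in the PBS-labelled libraries and 9.57, 33.4, 14.6 and 32 CPM in the DT-labelled libraries, with a slope of 0.75 ± 0.072 (SE; adjusted p = 0.00317). PBS 2 was highest, PBS 1 next and DT 3 and DT 5 came after them for all 3 genes. Sfmbt2, a polycomb gene of trophoblast, had 54.5 and 98.8 CPM in PBS 1 and PBS 2 and 5.79 to 15.2 CPM in the other 6 (slope 0.56 ± 0.039 (SE; adjusted p = 0.00106)). Of the windows of Igf2, 60.7% lie in overlapping genes, the antisense Igf2os among them. Slc38a4, Dlk1, Phlda2, Ascl2, Snrpn, Peg3 and Cdkn1c rose as well, with 22.6% of windows shared for Snrpn and 22.1% for Cdkn1c. Phlda2 and Ascl2 are also counted in the ectoplacental cone list above. Without PBS 2, 1 of the 25 passed, and without PBS 4, 1.

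Some conceptus genes were too low in 6 libraries to enter the test. Below the filter, 262 genes had at least 10 counts in both PBS 1 and PBS 2, and 121 of them had fewer than 10 in each of the other 6. These were selected on those counts and are given without a test. Hbb-bh0, a further embryonic globin-like gene, had 148 and 605 counts in PBS 1 and PBS 2 and 0 in each of the others. Prl2c1 of the proliferins had 91 and 561 counts against 0 to 1, and Myh7, the slow cardiac myosin chain, 136 and 432 against 1 to 8. Fgb, a fibrinogen chain of the yolk sac, had 44 and 192 counts against 0 to 10, and Sox1, a neural factor, 37 and 125 against 0 to 2. Prl2c1 shares 14.0% and Myh7 13.6% of windows with relatives. Of the 262, 19 were in the lists, the defining genes not counted.

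**Figure D4:**
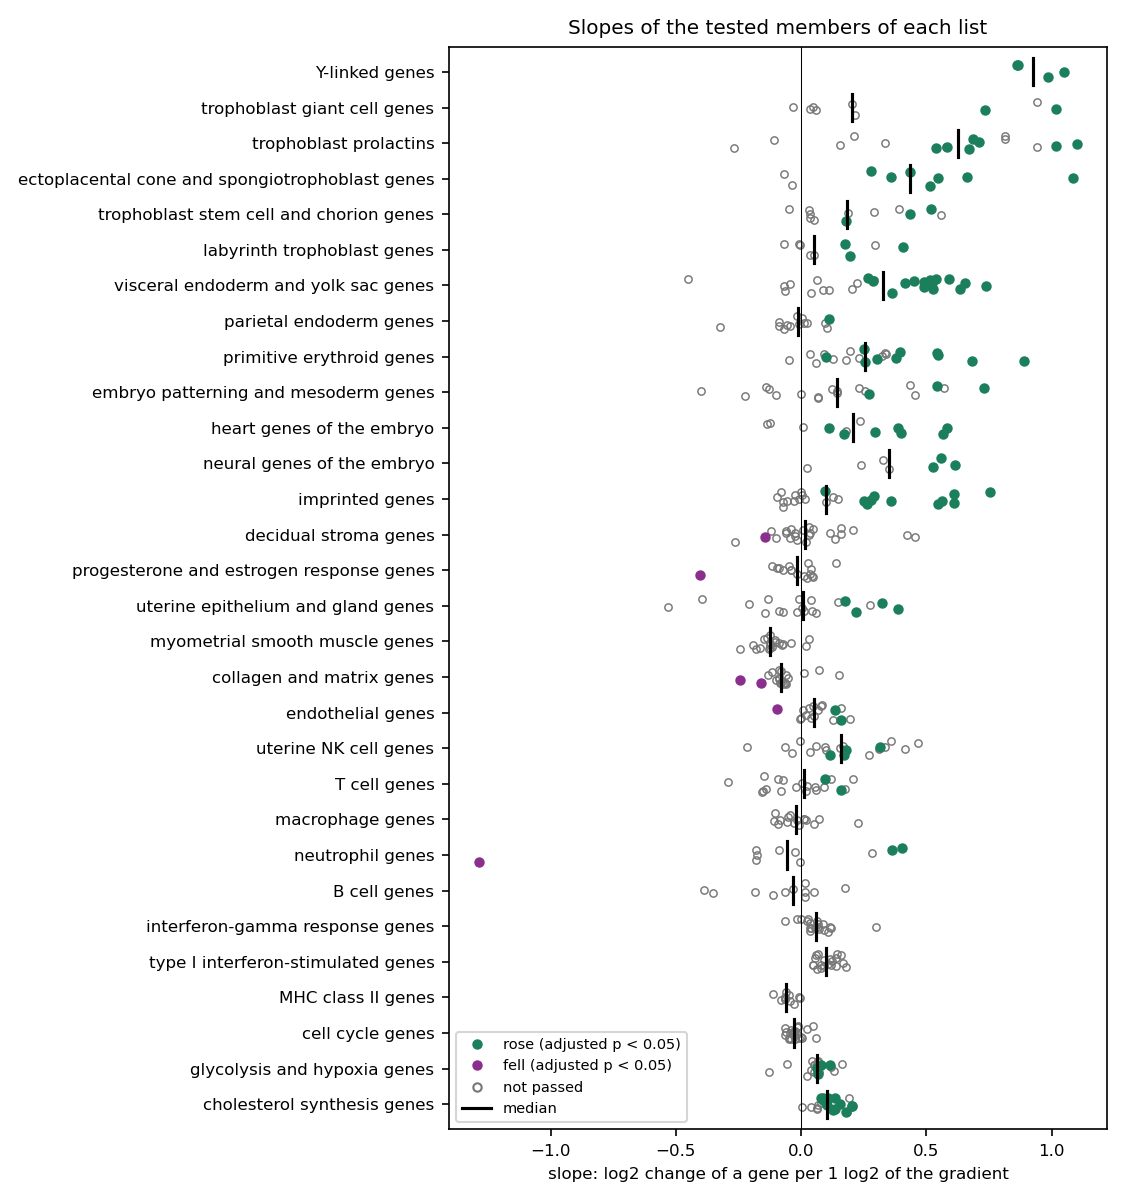
Slope of each tested member of the 30 lists (points), with members that rose in green, members that fell in purple, others open, and the list's median as a black bar. Conceptus lists (the upper 13) reach slopes of 1.10, members of the other 17 reach 0.46, and Ly6g stands apart at -1.29.

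The lists of decidual stroma and of the hormone response held 1 call each, where 3.53% of all genes tested rose and 1.45% fell. Of 24 decidual stroma genes 0 rose and 1 fell (median slope 0.014), and of 17 progesterone and estrogen response genes 0 rose and 1 fell (-0.017). Alpl, alkaline phosphatase of decidualising stroma, measured 41.1, 37.3, 84.4 and 55.9 CPM in the PBS-labelled libraries and 86.5, 75, 95 and 68.4 CPM in the DT-labelled libraries, with a slope of -0.14 ± 0.030 (SE; adjusted p = 0.0405). Every other library was above PBS 1 and PBS 2 for Alpl. Htra1, a secreted protease of the placental bed, measured 955, 1508, 95.3 and 350.5 CPM in the PBS-labelled libraries and 43.3, 240.0, 139 and 280.1 CPM in the DT-labelled libraries, and its slope of 0.45 ± 0.13 (SE; adjusted p = 0.0936) did not pass. Htra3, its relative in the decidua, measured 1086, 1318, 106 and 369 CPM in the PBS-labelled libraries and 116, 233, 107 and 280.1 CPM in the DT-labelled libraries and did not pass either (slope 0.42 ± 0.10 (SE; adjusted p = 0.0577)). Both were highest in PBS 1 and PBS 2, but they also differed widely among the other 6 libraries. Prl8a2, a prolactin of the decidua chosen after its values were seen, measured 7066, 8959.7, 2893 and 6719.9 CPM in the PBS-labelled libraries and 687, 5479, 3682 and 5666 CPM in the DT-labelled libraries, lowest in DT 1, and did not pass (slope 0.16 ± 0.13 (SE; adjusted p = 0.482)). Without PBS 2 or without PBS 4, 0 decidual genes passed, and without DT 1, 5 rose and 4 fell.

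Most slopes of muscle and matrix genes were negative. Of 20 myometrial genes 18 had negative slopes, against 52.0% of all genes, and 0 passed by edgeR (median slope -0.12). At an unadjusted p under 0.05, 11 of the 20 were lower, against 12.9% of all genes, with 6 lower by DESeq2 and 0 by limma voom. Myh11, smooth muscle myosin, measured 384, 341, 849 and 713 CPM in the PBS-labelled libraries and 1097, 528, 569 and 374 CPM in the DT-labelled libraries (slope -0.19 ± 0.066 (SE; adjusted p = 0.138)), and Oxtr, the oxytocin receptor, had 3.75 and 3.99 CPM in PBS 1 and PBS 2 and 6.97 to 15.2 CPM in the other 6 (slope -0.16 ± 0.050 (SE; adjusted p = 0.11)). Myh11 was highest in DT 1, and PBS 1 lay within the range of the other libraries. Of 20 collagen and matrix genes 2 fell and 0 rose (median slope -0.082, 17 slopes negative). Col14a1, a collagen of fibril surfaces, measured 293, 161, 626 and 459 CPM in the PBS-labelled libraries and 855, 537, 666 and 465 CPM in the DT-labelled libraries, with a slope of -0.24 ± 0.040 (SE; adjusted p = 0.0192), and Mfap4, of elastic fibres, had 34.4 and 26.8 CPM in PBS 1 and PBS 2 and 51 to 79.1 CPM in the other 6 (slope -0.16 ± 0.028 (SE; adjusted p = 0.0237)). PBS 2 was lowest for both. Without DT 1, 12 myometrial and 9 matrix genes fell, and without PBS 2 or PBS 4, 0 of either.

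Uterine epithelial genes divided. Of 20 tested, 4 rose and 0 fell (median slope 0.0073), and these were Krt8, Krt19, Sprr2f and Wfdc3. Krt8, a keratin of simple epithelia and of trophoblast, measured 55.2, 112, 16 and 16.9 CPM in the PBS-labelled libraries and 22, 26.9, 22.8 and 26 CPM in the DT-labelled libraries, with the smallest adjusted p of all genes (slope 0.39 ± 0.012 (SE; adjusted p = 5.98e-05)). Krt19 had 64.4 and 96.5 CPM in PBS 1 and PBS 2 and 29 to 52.2 CPM in the other 6 (slope 0.22 ± 0.029, and -0.20 in the 6 lower libraries). The summed level of the list was 1611 CPM in DT 1, 398 CPM in PBS 1 and 574 CPM in PBS 2, so the list as a whole was not highest where these keratins were. Of the windows of Krt8, 23.5% occur in other annotated copies. Without PBS 2, 1 of the 20 passed.

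Uterine NK cells, the main lymphocytes of the decidua, had 4 risers and 0 fallers of 20 (median slope 0.16). Prf1, perforin, measured 159, 212, 40.5 and 64 CPM in the PBS-labelled libraries and 28.5, 50.3, 40.7 and 62.9 CPM in the DT-labelled libraries, with a slope of 0.32 ± 0.050 (SE; adjusted p = 0.0166). Il2rb, a shared chain of the interleukin-2 and interleukin-15 receptors, measured 98.2, 109, 46.3 and 56.4 CPM in the PBS-labelled libraries and 42.9, 55.1, 48.5 and 60.6 CPM in the DT-labelled libraries, with a slope of 0.17 ± 0.024 (SE; adjusted p = 0.0119). PBS 1 and PBS 2 were above all others for both, and PBS 4 was among the lowest. Eomes and the signalling adaptor Tyrobp (slope 0.12 ± 0.025) were the others. The summed level of the 20 genes was 2105 CPM in PBS 1, 2486 CPM in PBS 2 and 346 to 1004 CPM in the other 6. DESeq2 called 12 of the 20 higher, and without PBS 2 or PBS 4, 0 passed by edgeR, against 12 higher and 1 lower without DT 1.

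The other immune lists are set beside all genes tested, of which 3.53% rose and 1.45% fell. Of 20 T cell genes 2 rose (10%) and 0 fell (median slope 0.011). Among them Tcf7, a transcription factor of T cells, had 18.2 and 23.7 CPM in PBS 1 and PBS 2 and 14 to 18.6 CPM in the other 6 (slope 0.094 ± 0.015). For Tcf7 PBS 1 lay among the DT-labelled libraries. Of 10 neutrophil genes 2 rose (20%) and 1 fell (median -0.056). Cxcr2, a chemokine receptor, measured 1.31, 3.02, 0.444 and 0.378 CPM in the PBS-labelled libraries and 0.568, 1.12, 0.643 and 0.757 CPM in the DT-labelled libraries (slope 0.40 ± 0.045), and Mpo, myeloperoxidase, had 1.27 and 1.64 CPM in PBS 1 and PBS 2 and 0.227 to 0.387 CPM in the other 6 (slope 0.36 ± 0.055). Ly6g, the defining surface marker of neutrophils, measured 0.0218, 0.0206, 4.81 and 3.95 CPM in the PBS-labelled libraries and 0.0856, 0.0999, 0.0816 and 0.107 CPM in the DT-labelled libraries, with a slope of -1.29 ± 0.13 (SE; adjusted p = 0.00344). Its level was at or under 0.107 CPM in 6 libraries and stood out in PBS 4 and PBS 6, the libraries titled S2. The slope of Ly6g therefore described a contrast among the PBS-labelled libraries and was -0.056 without PBS 1 and PBS 2. What the title number stands for cannot be told apart from this contrast. Macrophage (16 tested), B cell (11), interferon-gamma response (20), type I interferon (20) and MHC class II (11) genes had 0 calls by edgeR, and at an unadjusted p under 0.05 they had 2, 1, 1, 3 and 0 higher and 2, 0, 1, 0 and 2 lower, where 11.6% of all genes were higher and 12.9% lower. Of the type I interferon genes 20 of 20 slopes were positive (median 0.10), of the interferon-gamma genes 18 of 20 (0.059), and of the MHC class II genes 11 of 11 were negative (-0.062). The count of type I interferon genes depended on DT 1: without it 11 of the 20 rose, and without any other library 0. Without DT 1, 2 macrophage genes also rose and 2 fell, 1 B cell and 1 interferon-gamma gene rose, and 4 T cell genes rose and 1 fell. Without PBS 6, 1 B cell gene fell. DESeq2 called 1, 0, 1, 3 and 0 higher and 2, 0, 0, 0 and 0 lower. Ciita, the MHC class II transactivator, had a slope of -0.064 ± 0.025, and Usp18, an interferon-induced protease, one of 0.18 ± 0.060.

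Of 17 endothelial genes 2 rose and 1 fell, and 15 of the 17 slopes were positive (median slope 0.053). Pecam1 measured 369, 458, 177 and 271 CPM in the PBS-labelled libraries and 167, 246, 195 and 254 CPM in the DT-labelled libraries (slope 0.16 ± 0.035 (SE; adjusted p = 0.0454)), and Flt4, the lymphatic receptor VEGFR3, had 72.6 and 91.5 CPM in PBS 1 and PBS 2 and 41.5 to 56.8 CPM in the other 6 (slope 0.14 ± 0.025). Robo4, a guidance receptor of vessels, had 22.5 and 19.2 CPM in PBS 1 and PBS 2 and 29.1 to 33.1 CPM in the other 6 and fell (slope -0.10 ± 0.016 (SE; adjusted p = 0.0176)). With library totals 0 endothelial genes rose, without PBS 2, 0 passed, and without DT 1, 7 rose.

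Cholesterol synthesis was the list outside the conceptus groups with the most risers. Of 20 genes 12 rose, 0 fell and all 20 slopes were positive (median slope 0.10). Mvk, mevalonate kinase, measured 31.6, 39, 16.9 and 16.4 CPM in the PBS-labelled libraries and 13.5, 15.4, 14.9 and 16.2 CPM in the DT-labelled libraries, with a slope of 0.18 ± 0.016 (SE; adjusted p = 0.00214). Hsd17b7, which acts late in the pathway, measured 56.8, 63.5, 21.7 and 30.3 CPM in the PBS-labelled libraries and 19.1, 25.1, 19.3 and 24 CPM in the DT-labelled libraries, with a slope of 0.20 ± 0.028 (SE; adjusted p = 0.00997). PBS 1 and PBS 2 were close to each other and above all others for both. Sqle, squalene epoxidase, had 88.5 and 97.4 CPM in PBS 1 and PBS 2 and 42.8 to 55.7 CPM in the other 6 (slope 0.13 ± 0.019), and Fdft1, squalene synthase, had 42.9 and 48.5 CPM in PBS 1 and PBS 2 and 23.8 to 28.9 CPM in the other 6 (slope 0.13 ± 0.015, 21.8% of windows shared). Of 20 glycolysis and hypoxia genes 4 rose and 0 fell (median 0.063), among them Ldha (slope 0.11 ± 0.020) and Hk1 (slope 0.064 ± 0.013). Of 25 cell cycle genes 0 passed by edgeR or DESeq2 (1 lower at an unadjusted p under 0.05, median slope -0.028). With library totals, 5 cholesterol and 1 glycolysis genes rose. Leaving out PBS 2 left 0 of either, and leaving out PBS 4 left 1 and 0. Without DT 1 they were 16 and 13.

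Among genes with a mean log2 CPM of 0 or more, which leaves out Ly6g, the 15 steepest fallers had slopes of -0.52 to -0.27, shallower than the steepest risers. Asic3, an acid-sensing ion channel (chr5:24413392-24417835), measured 1.39, 0.836, 12.2 and 5.67 CPM in the PBS-labelled libraries and 12.4, 5.4, 9.82 and 5.34 CPM in the DT-labelled libraries, with a slope of -0.52 ± 0.067 (SE; adjusted p = 0.0085). Drd4, a dopamine receptor, measured 11.1, 5.86, 63.6 and 28.3 CPM in the PBS-labelled libraries and 71.5, 31.4, 57.2 and 30.6 CPM in the DT-labelled libraries, with a slope of -0.44 ± 0.065 (SE; adjusted p = 0.0138). For both genes PBS 2 was lowest, PBS 1 next, then DT 3, DT 5 and PBS 6, and DT 1, DT 4 and PBS 4 were highest. This order is the reverse of that of the gradient, apart from ranks among close libraries, and the slopes in the 6 lower libraries were also negative (-1.59 and -1.63).

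In 10 of the 15 fallers, Asic3 and Drd4 included, DT 1, DT 4 and PBS 4 were all above DT 3, DT 5 and PBS 6, and all 15 had negative slopes in the 6 lower libraries. The 5 genes in which these libraries mixed were Ptx3, Agtr2, Tnnc1, Cpne6 and Chd5, with slopes there of -0.27, -0.19, -0.38, -0.62 and -0.16. Ptx3, pentraxin 3 of innate defence, measured 4.2, 4.14, 37.1 and 22.2 CPM in the PBS-labelled libraries and 20.3, 29, 31.6 and 25.3 CPM in the DT-labelled libraries, with a slope of -0.43 ± 0.065 (SE; adjusted p = 0.0147). Agtr2, the type 2 angiotensin II receptor, measured 5, 2.14, 13.5 and 11.5 CPM in the PBS-labelled libraries and 11.2, 10.8, 11.7 and 10.8 CPM in the DT-labelled libraries, with a slope of -0.34 ± 0.024 (SE; adjusted p = 0.00106), and the 6 lower libraries stayed between 10.8 and 13.5 CPM. Il13ra2, the decoy receptor of interleukin-13 and also the faller of the hormone response list, had 2.65 and 2.36 CPM in PBS 1 and PBS 2 and 6.56 to 24.5 CPM in the other 6 (slope -0.40 ± 0.088, and -1.64 in the 6). Mgat4c, a glycosyltransferase gene, had 6.02 and 3.41 CPM in PBS 1 and PBS 2 and 14.8 to 31.2 CPM in the other 6 (slope -0.39 ± 0.041), and Fa2h, which hydroxylates fatty acids, had 0.762 and 0.877 CPM in PBS 1 and PBS 2 and 2.75 to 5.88 CPM in the other 6 (slope -0.37 ± 0.068, and -1.15 in the 6). Tnnc1, troponin C of heart and slow muscle, had 4.53 and 5.12 CPM in PBS 1 and PBS 2 and 17.5 to 35.4 CPM in the other 6 (slope -0.32 ± 0.063), opposite in direction to the heart genes that rose. The remaining 7 were Zyg11a (slope -0.40 ± 0.053), the presynaptic Unc13c (-0.38 ± 0.078), Lor, loricrin (-0.32 ± 0.039), Cpne6 (-0.32 ± 0.058), Adam11 (-0.30 ± 0.046), the neuromedin U receptor Nmur2 (-0.27 ± 0.050) and the chromatin remodeller Chd5 (-0.27 ± 0.040). In the 6 lower libraries the slope of Unc13c was -1.58, that of Zyg11a -1.08 and that of Adam11 -1.03. For each of these 15 genes both PBS 1 and PBS 2 were below every other library.

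The gradient was also used to ask what treatment did at equal gradient. With treatment and gradient in the fit, 0 of 22688 genes passed for treatment by edgeR (smallest adjusted p = 0.0720, 1003 genes at an unadjusted p under 0.05, background 0%), against 253 higher and 18 lower by DESeq2 and 0 by limma voom. With treatment alone, 73 were higher and 1 lower in the DT-labelled libraries. All 74 kept their sign and an unadjusted p under 0.05 once the gradient was included, with a median log2 fold change of 1.18 after and 1.26 before, and a median SE of 0.17 and 0.15. Of the 74, 0 were called along the gradient. The 74 were selected on treatment in these same libraries, so these counts are a description and no second test. Igtp, an interferon-induced GTPase, measured 10.8, 12.3, 9.72 and 11.8 CPM in the PBS-labelled libraries and 28.5, 67, 69 and 82.2 CPM in the DT-labelled libraries, so the groups did not overlap. Its log2 fold change (DT minus PBS) was 2.46 ± 0.30 (SE; adjusted p = 0.0314) with treatment alone and 2.56 ± 0.38 (SE; adjusted p = 0.111) with the gradient. Cd3e, a T cell receptor subunit, measured 0.207, 0.165, 0.397 and 0.293 CPM in the PBS-labelled libraries and 1.21, 1.14, 1.34 and 1.61 CPM in the DT-labelled libraries, again without overlap, with 2.31 ± 0.28 (SE; adjusted p = 0.0314) and 1.97 ± 0.22 (SE; adjusted p = 0.072) in the same order. H2-Ab1, an MHC class II chain, had 1.19 ± 0.11 (SE; adjusted p = 0.0153) and 1.11 ± 0.13 (SE; adjusted p = 0.072), and C1qa, a complement chain of macrophages, 0.75 ± 0.10 (SE; adjusted p = 0.0353) and 0.78 ± 0.12 (SE; adjusted p = 0.111). These 4 genes were named because earlier results of the same libraries had shown them. The title numbers lie within the treatment labels, so what they stand for cannot be told apart from treatment here. Without DT 1, 190 genes were higher and 9 lower given the gradient, and with a gradient of the 3 trophoblast genes, 15 and 1.

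Whether slopes differed between treatments could hardly be asked, since the DT-labelled libraries span 0.709 of the gradient and the PBS-labelled libraries 7.41. The product of treatment and gradient gave 0 calls by edgeR (smallest adjusted p = 0.362, 3042 genes at an unadjusted p under 0.05, background 0%), 43 higher and 87 lower by DESeq2, and 0 by limma voom. Without DT 4 it gave 1504 higher and 1018 lower, so the count for this term depended on that library.

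**Figure D5:**
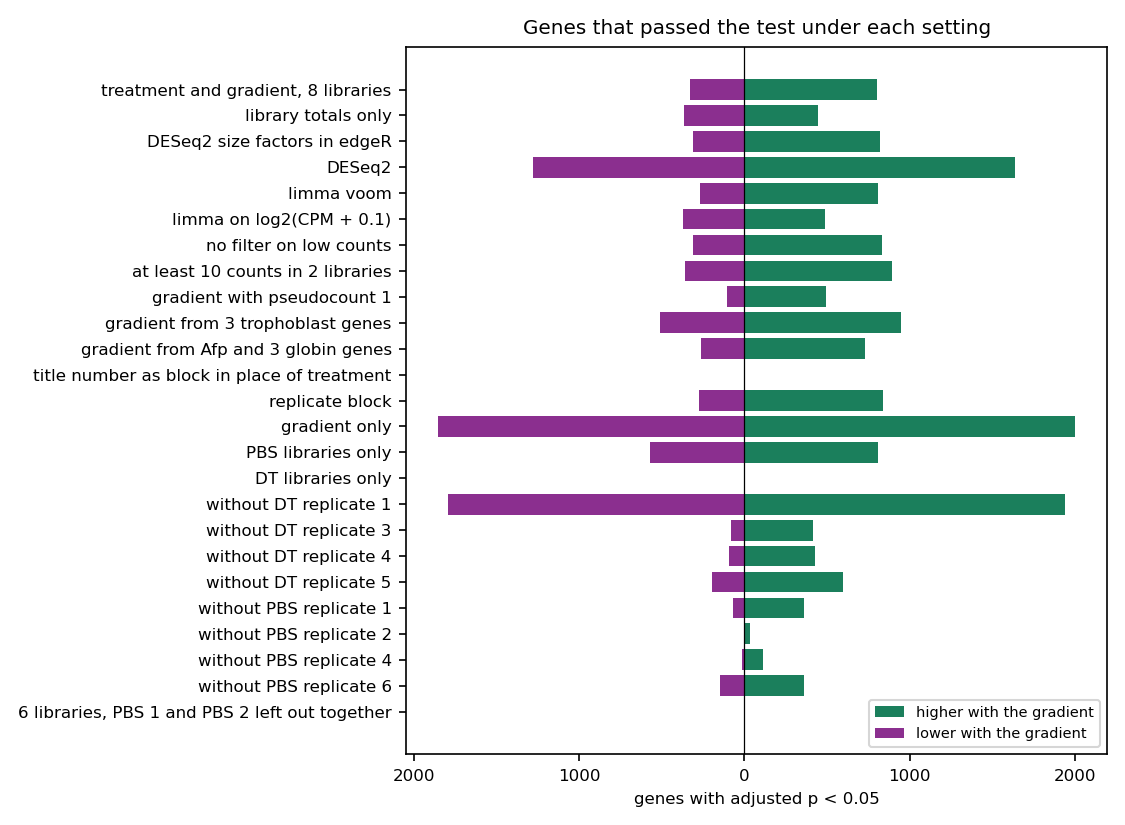
Number of genes with an adjusted p under 0.05 for the gradient under each setting, higher to the right in green and lower to the left in purple. The bars reach 2002 and 1852 with the gradient as the only term, 34 and 2 without PBS replicate 2, and 0 in the 6 libraries without PBS 1 and PBS 2, in the DT-labelled libraries alone and with the title number as a block.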

How the data were processed

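The values are raw read counts, which the authors deposited for each Ensembl gene, per library and in a series table, and these differed in 0 cells. Per the labels' protocols, RNA of the whole uterus (integrity numbers 8 to 10) was made into Kapa mRNA libraries and read as pairs of about 75 bases. The submitters' processing notes name HISAT2, featureCounts, Trimmomatic, SAMtools, DESeq2 and GRCm38; their versions, the strand setting and the rule for multi-mapping reads are not given in the sources read here. Of 49585 gene IDs, 49326 matched GENCODE M21 for symbols and coordinates; the other 259 held 0.076% of counts. No pair of the 8 libraries agreed within sampling noise (smallest chi-square per degree of freedom 29.0 over 28 pairs).

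With edgeR 4.0.16 (R 4.3.3), filterByExpr kept 22693 genes (of these, 22688 were not defining genes). Counts were scaled by TMM factors and fitted with the robust quasi-likelihood test on treatment and gradient, two-sided, with Benjamini-Hochberg adjustment over all genes and a threshold of 0.05. CPM values of the 7 defining genes, and of their mean, are per library total; those of other genes use TMM-scaled totals. Values are in the order PBS 1, 2, 4, 6 and DT 1, 3, 4, 5. On simulated counts for 22693 genes, 94 of 100 genes with a slope of 0.3 and 48 of 100 with a slope of 0.15 were recovered, and 7 of 149 calls were unchanged genes. The simulated slopes were given only to genes with a mean of 1 CPM or more, and noise was drawn for each gene separately. Recovery of lower genes and the effect of differences shared by many genes of a library were therefore not measured. P-values measure the spread between these libraries. The 7 genes, the 30 lists, the tests and the rule for naming genes were chosen with earlier results of these data known. Named were the defining and Y-linked genes, the 15 steepest called risers and fallers whose mean log2 CPM was 0 or more, up to 4 members per list by smallest p, and 4 treatment genes; others are marked as chosen after their values were seen, or are called members named without values. A few list members are counted but not reported here by name. No list was tested as a set. Alternatives were DESeq2 1.42.0, limma 3.58.1 (voom, or log2(CPM + 0.1) with a pseudocount of 0.1), other scalings, filters, gradients and covariates, and each library left out in turn. Replicate numbers 1 and 4 occur in both groups, and the labels do not say that they pair females.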

Additional observations from a re-analysis of the deposited data

Results flagged for a closer look

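In each labelled group of 4 libraries, a library was noted where its gap to the nearest other, divided by the group's range, exceeded Dixon's 95% critical value, on the log2(CPM + 0.1) scale. Over 122 measures and 244 groups this gave 6, where chance gives about 1 in 20 groups. DT 1 was far below the other DT-labelled libraries for Cts7 (3.53), Psg19 (-0.88), Sox21 (-2.15) and Esrrb (-2.56), which are trophoblast genes. DT 5 was far above the others for Pax6 (-1.76). DT 3 was far above the others for Hbb-y (-3.06), which there rests on 2 counts against 0. The part of the high epithelial and low decidual RNA of DT 1 in its low trophoblast values was not tested.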

How the results depend on the processing

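Counts of genes higher and lower along the gradient (801 and 329) stayed within 1.5 times with DESeq2's size factors, limma voom, no filter, a filter of 10 counts in 2 libraries (chosen after seeing the data) and a gradient of Afp and the globins. They came to 445 and 366 with library totals, 491 and 371 with limma on log2(CPM + 0.1), 492 and 105 with a pseudocount of 1 in the gradient, 946 and 509 with a gradient of the 3 trophoblast genes, 1641 and 1278 by DESeq2, 812 and 568 in the PBS-labelled libraries and 2002 and 1852 with no treatment term. They were 0 and 0 in the DT-labelled libraries, in the 6 libraries without PBS 1 and PBS 2, and with the title number as a block; the last leaves the gradient to differences within the numbers. With each library left out, they ran from 34 to 1939 and from 2 to 1791. The cause of these differences was not tested.

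For treatment given the gradient (0 and 0), the counts were 253 and 18 by DESeq2, 15 and 1 with the trophoblast gradient, 0 and 1 with no filter and in the 6 libraries, and 73 and 1 with no gradient term, and leaving out each library gave 0 to 190 higher and 0 to 9 lower. For the product term (0 and 0) they were 43 and 87 by DESeq2, and leaving out each library gave 0 to 1504 and 0 to 1018.

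Replicate numbers 1 and 4 occur in both groups. The replicate block, a random effect in limma voom, gave 840 and 272 calls along the gradient (consensus correlation -0.22) and 0 for treatment. With only 2 shared numbers, a pairing could not be checked.

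Of the 113 slopes given or screened, 89 passed over 8 libraries. In the 6 libraries without PBS 1 and PBS 2 the slope changed sign for Prl2c5 (-0.44), Prl3d2 (-0.41), Prl3d3 (-1.05), Prl8a9 (0.046), Slc16a3 (-0.0087), Syna (-0.075), Slc4a1 (-0.82), Klf1 (-0.18), Hbb-bs (-0.49), Hba-a1 (-0.45), Hba-a2 (-0.69), Hbb-bt (-1.30), Pou5f1 (1.71), Ttn (-0.40), Robo4 (0.014), Krt19 (-0.20) and C1qa (-0.19). In the DT-labelled libraries it did so for Prl3d2 (-0.47), Prl3d3 (-1.28), Syna (-0.40), Star (-0.0082), Slc4a1 (-1.18), Klf1 (-0.40), Tfrc (-0.074), Hbb-bs (-0.37), Hba-a1 (-0.47), Hba-a2 (-0.23), Hbb-bt (-1.40), Pou5f1 (2.02), Ttn (-0.29), Ptx3 (0.090), Mpo (-0.22), Krt19 (-0.15), H2-Ab1 (0.018), Cd3e (0.13) and C1qa (-0.20). With the title number as a block it did so for Hbb-bs (-0.051), Hbb-bt (-0.23), Tnnc1 (0.0059), H2-Ab1 (0.060) and C1qa (-0.062), with no treatment term for Igtp (-0.29) and C1qa (-0.078), and for C1qa also with library totals (-0.022) and with limma on log2(CPM + 0.1) (-0.021). With each library left out, 0 changed sign. Whether depth limited the calls was not tested. Below 0.03 CPM a value rests on about 3 counts or fewer.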
